A study of Mus musculus with 4 samples.

Results

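The leukotriene and prostaglandin synthesis genes examined here are 10 genes of the eicosanoid pathway, and all 10 were found among the 17823 genes with values in the blood table. They were chosen by gene symbol and fall into 3 branches. The 5-lipoxygenase branch holds Alox5, Alox5ap, Lta4h and Ltb4r1, the 12/15-lipoxygenase branch holds Alox12 and Alox15, and the cyclooxygenase branch holds Ptgs1, Ptgs2, Ptges and Tbxas1. To investigate how naringenin (Nar), a citrus flavonoid, acts on aging mice, the study sequenced messenger RNA from the blood of C57BL/6 mice. The 2 groups, Ctrl and Nar, had 2 libraries each, numbered 1 and 3 in the sample labels. The Nar mice received naringenin at 20 mg/kg into the tail vein for 30 days, and the Ctrl mice received PBS in the same volume. All mice carried the same background and were 12 months old by the study's methods and adult by the labels. The study's methods call the mice of its maze test female, but do not say whether the sequenced mice were the same. The methods give dimethyl sulfoxide as the solvent of the naringenin stock but do not name that of the injection. The blood was not sorted into cell types.

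Eicosanoids are signalling lipids made from arachidonic acid after phospholipases release it from membranes. In neutrophils and other myeloid cells, 5-lipoxygenase with its helper protein FLAP makes leukotriene A4, which leukotriene A4 hydrolase turns into leukotriene B4, a strong attractant of neutrophils. In platelets, 12-lipoxygenase makes a hydroxylated fatty acid, while cyclooxygenase-1 and thromboxane synthase together make thromboxane A2, which drives platelet aggregation. Cyclooxygenase-2 is the inducible form of the enzyme, and the microsomal prostaglandin E synthase encoded by Ptges works beside it at sites of inflammation.

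To see what the genes share beyond their place in the pathway, their promoters were searched for the letters of 4 transcription factor motifs on both strands. The window runs from 250 bases before to 50 bases after the RefSeq start (GRCm38.p6), and 8 of the 10 genes matched. For Ptgs1, Ptges and Tbxas1 the start used lies inside the gene span, and starts further upstream were not searched. The Ets motif GAGGAA, whose letters PU.1 reads in myeloid cells, was present in 8 of 8 promoters. The same letters were found in 28.3% of all 32851 promoters and in 28.3% of the 5435 promoters of the tested genes. The GC box GGGCGG was found in 5 of 8, a share of 62.5% against 62.6% in the tested genes and 35.7% in all promoters. The C/EBP motif TTGCNNAA was found in 1 of 8, that of Ptgs2, against 9.13% in the tested genes and 10.8% of all promoters. The GATA motif AGATAA was found in 0 of 8, against 6.72% in the tested genes and 11.2% of all promoters. None of these motifs contains another, and a match describes letters and not a bound site. The motifs lay at different distances from the start, with the Ets letters beginning at -24 in Ptgs1 and -19 in Tbxas1, but at -136 in Alox5 (bases from the start). The 5 promoters below belong to genes on which the results turn, with the motifs in capitals and all sequences written along the gene's own strand.

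The first 3 are those of platelet enzymes, at chr11:70255321-70255620 (minus strand), chr2:36230176-36230475 (plus strand) and chr6:38918736-38919035 (plus strand). The last 2 are those of 5-lipoxygenase and the leukotriene B4 receptor, at chr6:116461129-116461428 (minus strand) and chr14:55765712-55766011 (plus strand).
Alox12: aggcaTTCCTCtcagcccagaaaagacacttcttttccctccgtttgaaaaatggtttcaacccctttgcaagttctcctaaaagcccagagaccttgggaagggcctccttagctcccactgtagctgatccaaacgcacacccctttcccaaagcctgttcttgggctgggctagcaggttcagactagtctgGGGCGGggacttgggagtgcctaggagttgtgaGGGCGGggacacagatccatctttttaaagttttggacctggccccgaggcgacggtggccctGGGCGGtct
Ptgs1: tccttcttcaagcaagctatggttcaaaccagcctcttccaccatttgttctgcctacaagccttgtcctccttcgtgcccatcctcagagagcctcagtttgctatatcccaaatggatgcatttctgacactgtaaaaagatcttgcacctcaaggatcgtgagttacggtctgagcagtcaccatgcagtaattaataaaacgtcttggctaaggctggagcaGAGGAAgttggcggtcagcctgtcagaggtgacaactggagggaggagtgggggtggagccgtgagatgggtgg
Tbxas1: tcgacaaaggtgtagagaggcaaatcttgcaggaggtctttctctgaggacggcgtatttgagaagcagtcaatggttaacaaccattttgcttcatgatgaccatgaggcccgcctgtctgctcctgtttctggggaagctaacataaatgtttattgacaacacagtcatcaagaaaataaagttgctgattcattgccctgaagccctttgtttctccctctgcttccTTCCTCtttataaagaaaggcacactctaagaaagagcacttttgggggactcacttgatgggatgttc
Alox5: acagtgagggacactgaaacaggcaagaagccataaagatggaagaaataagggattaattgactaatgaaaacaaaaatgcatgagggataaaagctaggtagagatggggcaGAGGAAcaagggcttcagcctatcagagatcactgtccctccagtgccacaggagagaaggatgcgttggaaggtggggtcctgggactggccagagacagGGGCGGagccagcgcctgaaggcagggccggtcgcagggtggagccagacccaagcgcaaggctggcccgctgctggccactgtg
Ltb4r1: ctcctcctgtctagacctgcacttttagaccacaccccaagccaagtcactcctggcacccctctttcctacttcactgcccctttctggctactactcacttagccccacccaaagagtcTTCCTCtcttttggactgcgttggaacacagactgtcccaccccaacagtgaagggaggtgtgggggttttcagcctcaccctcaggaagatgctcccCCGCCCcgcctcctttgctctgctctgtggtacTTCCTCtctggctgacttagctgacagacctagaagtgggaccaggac

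**Figure D1:**
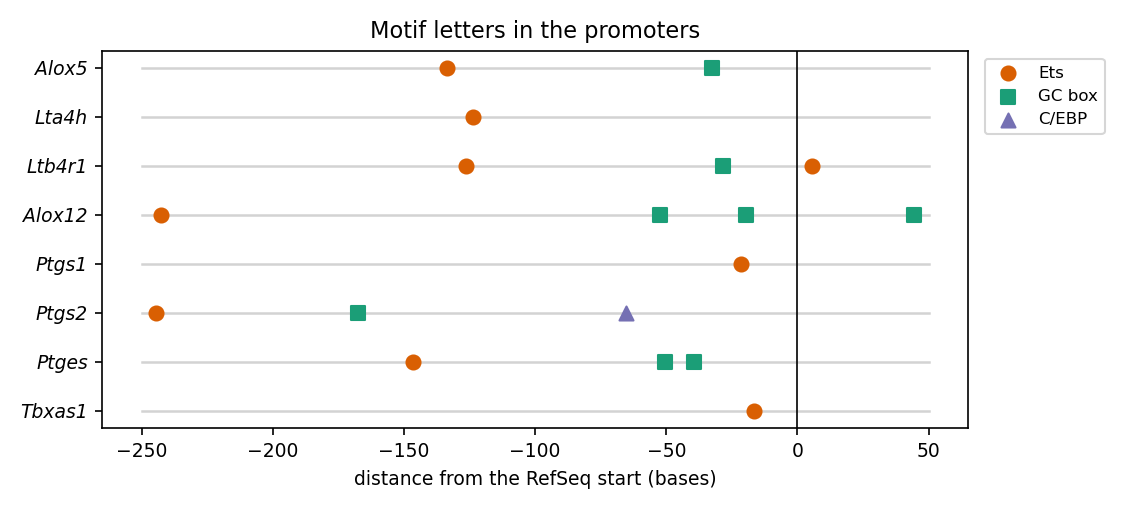
Positions of the motif letters in 8 promoters, by distance from the RefSeq start in bases, with each grey line a promoter from 250 bases before to 50 bases after the start. Marks are motif centres. For Ptgs1, Ptges and Tbxas1 the start used lies inside the gene span. Each of the 8 lines carries at least 1 Ets mark, while GC boxes lie on 5 of them.

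Expression is given as FPKM, a count of fragments corrected for transcript length and library size, so levels of different genes can be set side by side. Haemoglobin genes took between 92.6% and 96.4% of the summed FPKM, and every other gene shares what they leave. The median log2 fold change of the 5339 tested genes was -1.07 in Nar against Ctrl, and each gene below has to be read against that shift. A gene was tested with limma on log2(FPKM + 0.1) when its mean FPKM was at least 0.5, and it passed with a Benjamini-Hochberg adjusted p-value under 0.05 over all tested genes and a change of more than 2-fold. Fold changes on this scale understate the change of genes with low values. Of the 10 genes, 7 could be tested, while Alox15, Ptgs2 and Ptges lay under the limit.

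The most abundant of the genes were Alox12 and Alox5ap. Averaged over the 4 libraries, Alox12 had 123 FPKM and Alox5ap 96.9 FPKM, followed by Tbxas1 with 10.3 and Ptgs1 with 7.45. Alox12 was above Alox5ap in Ctrl 3, Nar 1 and Nar 3 but below it in Ctrl 1, while Tbxas1 was above Ptgs1 in each library. Ltb4r1, Lta4h and Alox5 lay close together in this average, with 1.105, 1.103 and 1.085 FPKM, and their order changed between libraries. Alox15 had a mean of 0.1525, Ptgs2 of 0.0925 and Ptges of 0.0225 FPKM. The transcript of 5-lipoxygenase itself was far below that of its helper FLAP in every library.

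**Figure D2:**
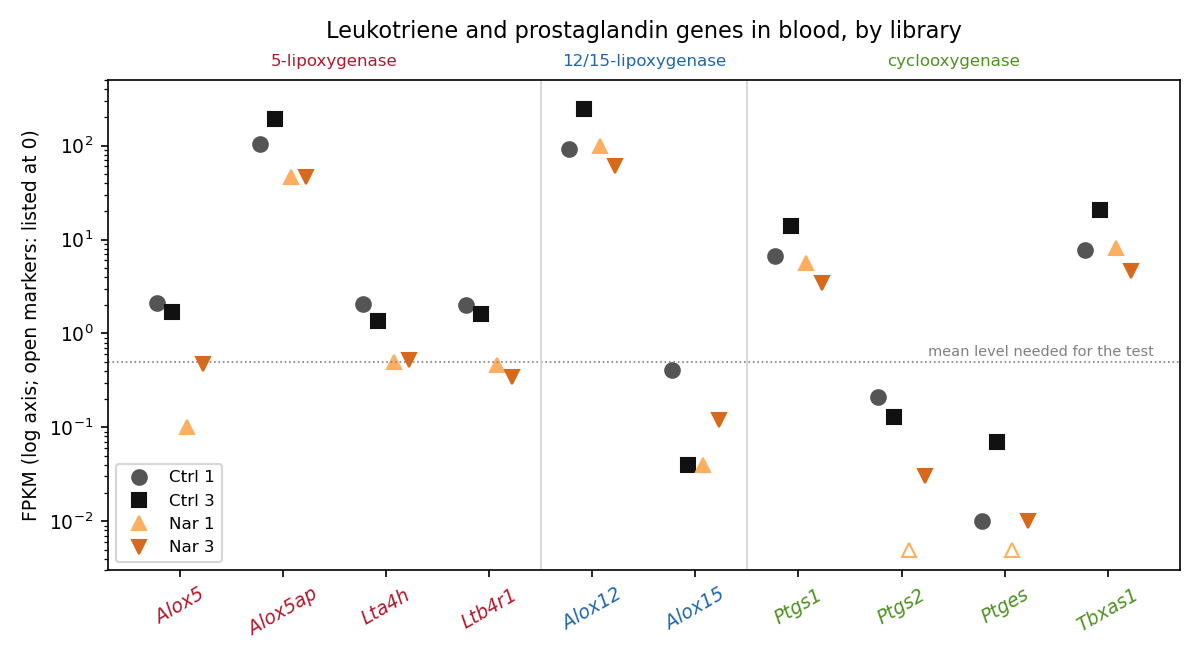
FPKM of the 10 genes in each of the 4 libraries, on a log axis, grouped by branch, with Ctrl libraries in grey and black and Nar libraries in orange. Alox5, Alox5ap, Lta4h and Ltb4r1 have both Nar libraries below both Ctrl libraries, whereas for Alox12 and Tbxas1 the Ctrl 1 library lies among the Nar libraries.

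To compare the 3 branches, the genes were first read from the fit across all genes. In the fit without a replicate block, all 4 genes of the 5-lipoxygenase branch fell in the Nar libraries and none of the 3 tested genes of the other branches passed. Of all tested genes, 39.3% passed as lower, so 4 of 7 is a share to be read against a background in which falling was common. Both Nar libraries lay below both Ctrl libraries in 5 of the 7 tested genes, against 78.3% of all tested genes. The median log2 fold change was -1.77 for the 5-lipoxygenase genes, -0.95 for Alox12 and -1.08 for the 2 tested cyclooxygenase genes. In the same order these values were -1.92, -1.64 and -1.70 without Ctrl 1 and -1.95, -0.25 and -0.47 without Ctrl 3. They were -1.70, -1.28 and -1.45 without Nar 1 and -1.68, -0.61 and -0.72 without Nar 3. The distance between the branches thus rested on which library was left out, in either group. Leaving out 1 library ended most of these calls in limma: without Ctrl 1 or without Ctrl 3 none of the 4 passed, without Nar 1 only Ltb4r1 did, and without Nar 3 only Alox5 did.

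Alox5 encodes 5-lipoxygenase (NCBI Gene 11689, chr6:116410071-116461178, GRCm38.p6) and fell in the fit with all 4 libraries. Its FPKM values were 2.09 (Ctrl 1), 1.68 (Ctrl 3), 0.1 (Nar 1) and 0.47 (Nar 3). Both Ctrl libraries were well above both Nar libraries, which themselves differed widely from each other. The means were 1.89 ± 0.29 FPKM (SD, n = 2) in Ctrl and 0.285 ± 0.262 (SD, n = 2) in Nar, and the fitted log2 fold change was -2.55 (standard error, SE, 0.502, adjusted p = 0.0116 in limma). It ranged from -1.79 without Nar 1 to -3.30 without Nar 3.

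Alox5ap encodes FLAP, the membrane protein that presents arachidonic acid to 5-lipoxygenase (NCBI Gene 11690, chr5:149265004-149288153). It was listed at 103.74 and 190.94 FPKM in the Ctrl libraries and at 46.72 and 46.1 FPKM in the Nar libraries. The Nar libraries were nearly identical, and the whole spread lay between the Ctrl libraries. The log2 fold change was -1.60 (SE 0.52, adjusted p = 0.0409 in limma), close to the threshold. It was -2.04 without Ctrl 1 and -1.16 without Ctrl 3, and it no longer passed when any one of the 4 libraries was left out. The numbers used as a replicate block gave Alox5ap an adjusted p of 0.133 in limma.

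Lta4h encodes the enzyme that makes leukotriene B4 (NCBI Gene 16993, chr10:93453396-93484896). Its level was 2.04 and 1.35 FPKM in Ctrl and 0.5 and 0.52 FPKM in Nar, so the groups lay well apart. The log2 fold change was -1.53 (SE 0.359, adjusted p = 0.0193 in limma). Ltb4r1 encodes the high-affinity receptor of leukotriene B4 (NCBI Gene 16995, chr14:55765962-55768492). The receptor stood at 2 and 1.62 FPKM in Ctrl and at 0.46 and 0.34 FPKM in Nar, again without overlap. The log2 fold change was -1.94 (SE 0.352, adjusted p = 0.00876 in limma).

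Alox12 encodes the platelet-type 12-lipoxygenase (NCBI Gene 11684, chr11:70241457-70255380) and did not pass the test. Its FPKM values were 92 (Ctrl 1), 242.28 (Ctrl 3), 97.95 (Nar 1) and 61.25 (Nar 3). Ctrl 3 stood above the rest, and Ctrl 1 lay between the Nar libraries. The log2 fold change was -0.95 with a 95% interval from -2.29 to 0.40 (limma adjusted p = 0.191), and it was -1.64 without Ctrl 1 and -0.25 without Ctrl 3. Alox15 encodes the mouse 12/15-lipoxygenase of eosinophils and tissue macrophages and lies on the same chromosome (NCBI Gene 11687, chr11:70344147-70390538). Its FPKM values were 0.41 (Ctrl 1), 0.04 (Ctrl 3), 0.04 (Nar 1) and 0.12 (Nar 3), so only Ctrl 1 stood out and the groups overlapped.

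In the cyclooxygenase branch, Ptgs1 encodes the constitutive cyclooxygenase-1 (NCBI Gene 19224, chr2:36216742-36258593). It was listed at 6.72 and 14 FPKM in Ctrl and at 5.6 and 3.47 FPKM in Nar. Both Nar libraries were lower than both Ctrl libraries, and Ctrl 3 was 2.08 times Ctrl 1. The log2 fold change was -1.12 with a 95% interval from -2.33 to 0.09 (limma adjusted p = 0.105). It was -1.64 without Ctrl 1 and -0.60 without Ctrl 3.

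Tbxas1 encodes thromboxane synthase (NCBI Gene 21391, chr6:38864159-39084590). Its FPKM values were 7.74 (Ctrl 1), 20.79 (Ctrl 3), 8.06 (Nar 1) and 4.62 (Nar 3). As for Alox12, Ctrl 3 was highest and Ctrl 1 fell between the Nar libraries. The log2 fold change was -1.04 with a 95% interval from -2.40 to 0.31 (limma adjusted p = 0.158), and it was -1.75 without Ctrl 1 and -0.34 without Ctrl 3.

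The inducible genes of this branch were barely present. Ptgs2, which encodes cyclooxygenase-2, was listed at 0.21 and 0.13 FPKM in Ctrl and at 0 and 0.03 FPKM in Nar. Ptges was listed at 0.01 and 0.07 FPKM in Ctrl and at 0 and 0.01 FPKM in Nar. The Ptgs2 groups did not overlap, but both genes lay at or near the rounding limit of the file in Nar, so no fold is given. Ptgs1 was far above Ptgs2 in every library.

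**Figure D3:**
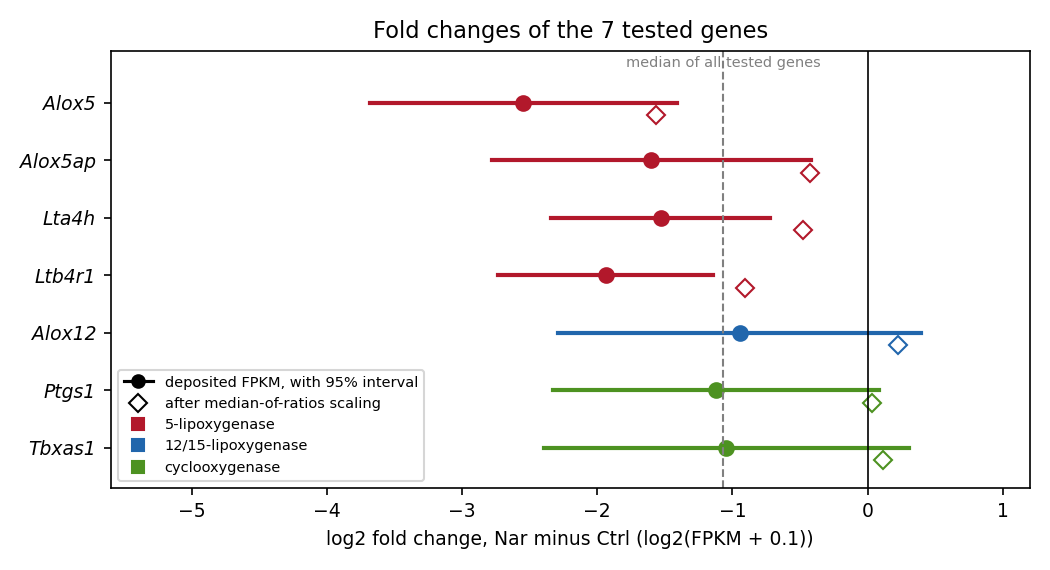
Log2 fold changes of the 7 tested genes, Nar minus Ctrl, as points with 95% intervals from limma on the deposited FPKM, and as open diamonds after median-of-ratios scaling. The 4 genes of the 5-lipoxygenase branch lie left of the median of all tested genes (-1.07, dashed), whereas Alox12, Ptgs1 and Tbxas1 lie close to it, and their diamonds lie just right of 0.

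These differences depended on the scaling of the libraries. Median-of-ratios scaling sets the typical gene level between the libraries and moved the median of all tested genes from -1.07 to 0. After it the log2 fold changes were -1.56 for Alox5, -0.90 for Ltb4r1, -0.48 for Lta4h and -0.43 for Alox5ap, while those of Alox12, Tbxas1 and Ptgs1 turned to 0.23, 0.12 and 0.04. None of the 7 genes passed in limma, against 0.787% of all tested genes. An unadjusted p-value under 0.05 was reached by 2 of the 7 and by 14.9% of all tested genes. Relative to the median of all tested genes in the deposited values, Alox5 lay at -1.48, Ltb4r1 at -0.86, Alox5ap at -0.53 and Lta4h at -0.46 log2 units. Ptgs1, Tbxas1 and Alox12 were within 0.13 of that median.

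A ratio of 2 abundant genes in the same library hardly moves with such scaling, so the branches were also compared through the most abundant gene of each, on log2(FPKM + 0.1). The log2 ratio of Alox5ap to Alox12 was 0.17 (Ctrl 1), -0.34 (Ctrl 3), -1.07 (Nar 1) and -0.41 (Nar 3). Both Nar libraries were lower, with a difference of -0.65 between the group means, and the Ctrl 3 and Nar 3 values were nearly the same. The log2 ratio of Alox5ap to Tbxas1 was 3.73 and 3.19 in Ctrl and 2.52 and 3.29 in Nar, and the groups overlapped. The log2 ratio of Alox12 to Tbxas1 was 3.55 and 3.54 in Ctrl and 3.59 and 3.70 in Nar, so these platelet enzymes kept a nearly constant proportion across the 4 libraries. In exact two-sided permutation tests of the 3 ratios, p was 0.33, 0.67 and 0.33 (0.5, 0.67 and 0.5 after Benjamini-Hochberg adjustment), and 2 libraries against 2 cannot go below 0.33. The ratio of Alox5 to Alox12, chosen after its values were seen, was -5.39 and -7.09 in Ctrl and -8.94 and -6.75 in Nar on the log2 scale, where the low values of Alox5 make the ratio depend on the pseudocount. Its groups overlapped, and with these ratios the branches are not shown to differ in their response.

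The libraries separated the genes in another way too. Alox12, Tbxas1, Ptgs1 and Alox5ap were all highest in Ctrl 3, at 1.84 to 2.69 times their level in Ctrl 1. Alox5, Lta4h and Ltb4r1 were highest in Ctrl 1, with Ctrl 3 at 0.662 to 0.81 times that level. Of all tested genes, 52.7% were highest in Ctrl 3 and 41.7% in Ctrl 1. Marker genes of blood cells also differed between the libraries. All 12 platelet markers were highest in Ctrl 3, and their summed level was 888.8 and 2904 FPKM in Ctrl and 815.7 and 580.3 FPKM in Nar. None of the 12 was at 0 in any library, none passed the test, and their median log2 fold change was -1.07 (0.10 after median-of-ratios scaling). The summed level of 13 neutrophil markers was 1737 and 1436 FPKM in Ctrl and 105.1 and 164.4 FPKM in Nar. All 11 tested markers of the 13 fell, beside 39.3% of all tested genes, with a median log2 fold change of -3.77. After median-of-ratios scaling this median was -2.60 with 5 calls, beside 0.787% of all tested genes called. The other 2, the granule enzymes Elane and Mpo, which are made early in neutrophil development, lay under the limit for the test and were each listed at 0 in at least 1 library. How far these cell markers account for the values of the eicosanoid genes was not tested, and in unsorted blood fewer cells of a type and less RNA per cell cannot be told apart.

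**Figure D4:**
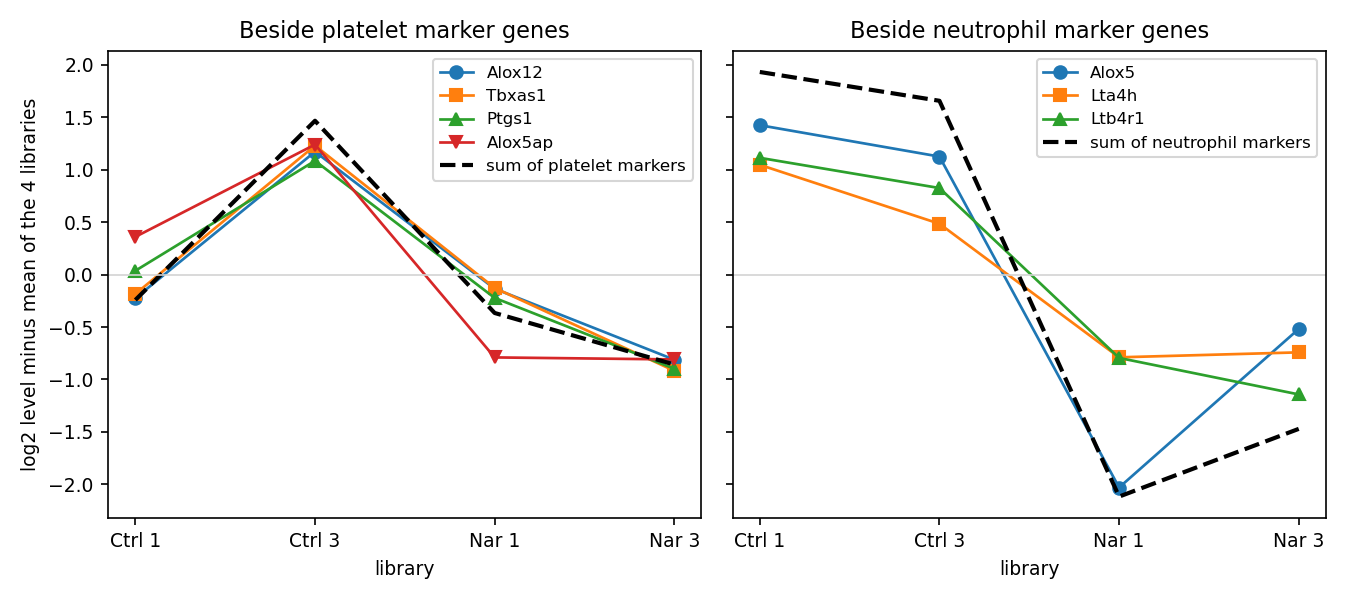
Log2 level of single genes minus their mean over the 4 libraries, with the summed markers of platelets (left) or neutrophils (right) as a dashed line. The lines only link points of one gene, and the genes were divided between the panels after their values were seen. Alox12, Tbxas1, Ptgs1 and Alox5ap peak in Ctrl 3, while Alox5, Lta4h and Ltb4r1 peak in Ctrl 1. All of these genes except Alox12 and Tbxas1 have both Ctrl libraries above both Nar libraries.

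Markers of the other blood cells were read in the same way. Of 8 monocyte markers 4 fell, beside 39.3% of all tested genes, with a median log2 fold change of -1.61 (-0.46 and 2 calls after median-of-ratios scaling). Their summed level was 85.69 and 96.92 FPKM in Ctrl and 28.22 and 10.27 FPKM in Nar. The 6 eosinophil markers summed to between 0.22 and 0.5 FPKM in all libraries, and 4 of them were listed at 0 in at least 1 library. The basophil and mast cell markers summed to 16.6 and 10.3 FPKM in Ctrl and 1.09 and 3.69 in Nar, and Hdc, the histamine-forming enzyme, alone had 13.57, 9.98, 0.78 and 1.74 FPKM of these. Only 2 of the 6 could be tested, of which 1 fell and the other had a log2 fold change of 0.26. Among the lymphocyte markers, none of the 7 for B cells and none of the 5 tested for T cells passed, while 1 of the 4 tested for NK cells fell. The erythroid markers had a median log2 fold change of 0.55 (1.72 after median-of-ratios scaling) and none passed. That scaling turned the B cell median from -0.34 to 0.77 and the T cell median from -0.47 to 0.55.

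The gene nearest to Alox12 in its profile over the 4 libraries was Clic4, at a Euclidean distance of 0.029 on centred log2(FPKM + 0.1) among 5338 genes, followed by Bicd2 (0.073) and Fermt3 (0.075). Fermt3 encodes kindlin-3, which activates integrins in platelets and leukocytes. Nearest to Tbxas1 were Stau2 (0.023), P2rx1 (0.052), an ATP receptor of platelets, and Arhgap31 (0.061). Nearest to Alox5ap were Atf1 (0.057), Commd10 (0.078) and Bst2 (0.116). With 4 libraries such likeness is a description only.

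To place these genes in the wider pathway, 51 further eicosanoid genes were listed by function. Of these, 49 had values, 18 could be tested, 8 fell and 0 rose in limma, where 12 of the 18 had an unadjusted p-value under 0.05, and of these 1 was higher with Nar. Over all tested genes that share was 56.9%. In 13 of the 18 genes both Nar libraries were lower than both Ctrl libraries, and in 1 both were higher. These counts stand beside 39.3% of all tested genes that passed as lower and 78.3% with both Nar libraries lower. The median log2 fold change of the 18 was -1.16, close to that of all tested genes, and after median-of-ratios scaling it was -0.12 and none of the 18 passed, although 6 had an unadjusted p-value under 0.05, of which 3 were higher with Nar. The 8 calls became 0 without Ctrl 1 or without Ctrl 3, 1 without Nar 1 or without Nar 3, and 3 with haemoglobin genes removed.

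In the list of leukotriene conversion and removal, which also held Cotl1, 5 of 6 tested genes passed, against 39.3% of all tested genes. The median of the 6 was -0.72 after median-of-ratios scaling, and none of them then passed in limma. Cotl1, which encodes a partner protein of 5-lipoxygenase, was listed at 20.03 and 15.92 FPKM in Ctrl and at 4.84 and 3.35 FPKM in Nar, with a fitted change of -2.12 on the log2 scale (SE 0.481, adjusted p = 0.0177 in limma). Cyp4f18, which inactivates leukotriene B4 in mouse neutrophils, was listed at 8.46 and 5 FPKM in Ctrl and at 1.43 and 2.3 FPKM in Nar. Its log2 fold change was -1.79 (limma adjusted p = 0.0243). The glutathione transferase Mgst2 and the peptidases Ggt5 and Dpep2, which make and trim cysteinyl leukotrienes, had log2 fold changes of -1.73, -2.15 and -1.61 (limma adjusted p = 0.0308, 0.0241 and 0.0201). Leaving out 1 library moved Mgst2 between -1.13 (without Ctrl 1) and -2.33 (without Ctrl 3) and Ggt5 between -1.58 (without Nar 1) and -2.71 (without Nar 3). Mgst3 did not pass, with a log2 fold change of 0.31 and a 95% interval from -0.69 to 1.31. Ltc4s, the main leukotriene C4 synthase, was listed at 0.08 and 0.25 FPKM in Ctrl and at 0 in both Nar libraries, under the limit for the test.

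Among the receptors, Fpr2, which binds formyl peptides and lipoxin A4, was listed at 8.87 and 7.47 FPKM in Ctrl and at 1 and 1.13 FPKM in Nar. Its log2 fold change of -2.82 was the lowest of the 18 (SE 0.402, adjusted p = 0.00448 in limma). Cysltr2, a cysteinyl leukotriene receptor, was listed at 1.48 and 4.52 FPKM in Ctrl and at 1.37 and 0.66 FPKM in Nar, and its log2 fold change of -1.35 had a 95% interval from -2.60 to -0.11 (limma adjusted p = 0.072). Like Alox12, it stood out in Ctrl 3 alone. The prostacyclin receptor Ptgir had a log2 fold change of -0.93 and did not pass (limma adjusted p = 0.114).

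Of the 4 tested genes of arachidonic acid release, Pla2g7 alone passed the test, against 39.3% of all tested genes that passed as lower. It encodes a secreted phospholipase that breaks down platelet-activating factor rather than releasing arachidonic acid. Its level was 15.8 and 10.8 FPKM in Ctrl and 1.74 and 2.24 FPKM in Nar, with a fitted change of -2.67 on the log2 scale (SE 0.457, adjusted p = 0.00762 in limma). Pla2g4a, the cytosolic phospholipase that releases arachidonic acid, was listed at 1.04 and 2.45 FPKM in Ctrl and at 1.16 and 0.34 FPKM in Nar, so its groups overlapped. Its log2 fold change was -1.20 with a 95% interval from -2.46 to 0.07 (limma adjusted p = 0.101). Plaa, which encodes a phospholipase A2-activating protein, stood at 0.74 and 0.9 FPKM in Ctrl and at 0.33 and 0.34 FPKM in Nar, without overlap, and just missed the threshold (limma adjusted p = 0.0527). The secreted phospholipase gene Pla2g12a had 5.65 and 10.68 FPKM in Ctrl and 4.5 and 4.12 FPKM in Nar, again with both Nar libraries lower (limma adjusted p = 0.165).

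Of the other prostanoid synthases, 1 of 4 tested genes passed, against 39.3% of all tested genes that passed as lower. Ptges3, a co-chaperone that also has prostaglandin E synthase activity, was listed at 1.6 and 1.23 FPKM in Ctrl and at 0.81 and 0.42 FPKM in Nar, a log2 fold change of -1.13 (limma adjusted p = 0.0483), which was -1.53 without Nar 1 and -0.725 without Nar 3. Cbr1, a carbonyl reductase that acts on prostaglandin E2, was listed at 1.8 and 0.79 FPKM in Ctrl and at 3.14 and 2.31 FPKM in Nar. Its log2 fold change was 1.10 with a 95% interval from 0.08 to 2.13 and did not pass (limma adjusted p = 0.0731), but it was the 1 gene of the 18 with both Nar libraries above both Ctrl libraries. Ptgds, a prostaglandin D synthase, was listed at 1.27, 1.17, 1.2 and 5.3 FPKM in Ctrl 1, Ctrl 3, Nar 1 and Nar 3, so Nar 3 alone stood out. The transporter Abcc4, which exports prostaglandins, had a log2 fold change of -0.47 (limma adjusted p = 0.356). None of the 4 other lipoxygenases reached the limit for the test, the most abundant being Alox8 with 0.08 and 0.02 FPKM in Ctrl and 0 and 0.01 FPKM in Nar.

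**Figure D5:**
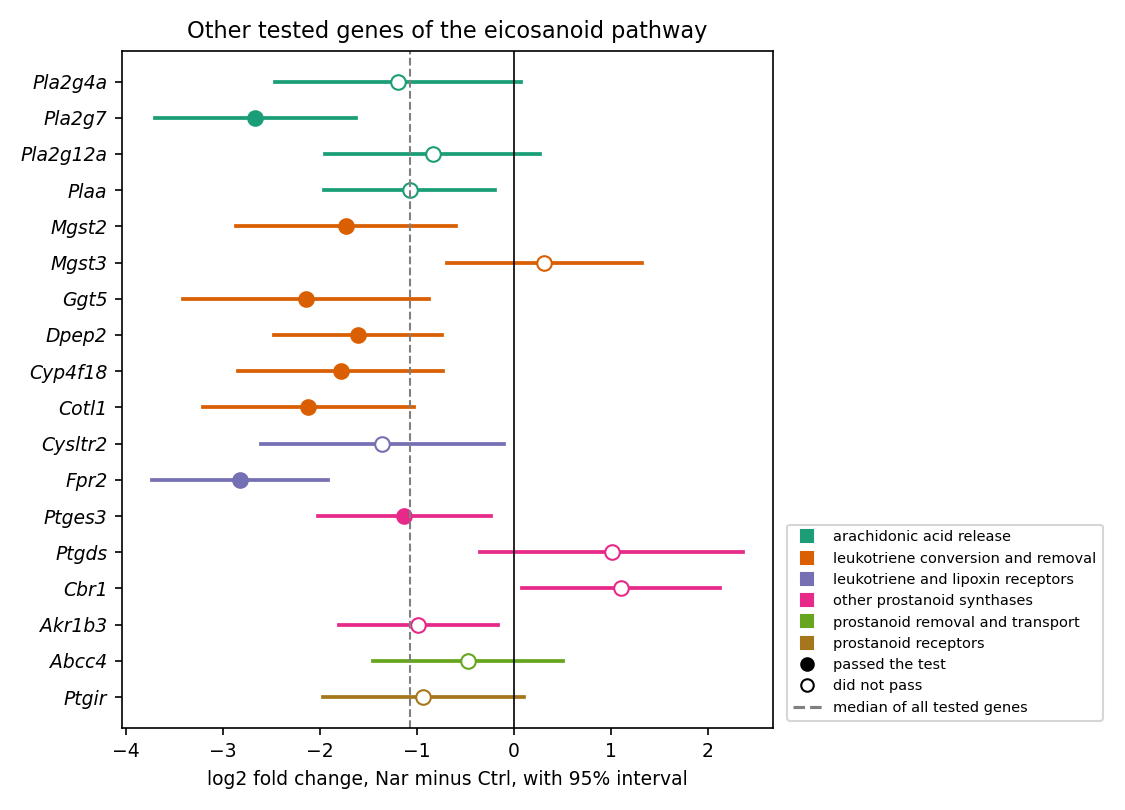
Log2 fold changes of the 18 tested genes of the wider pathway, Nar minus Ctrl, with 95% intervals from limma, filled where the test was passed and coloured by function. Of the 8 filled points 5 are in the list of leukotriene conversion and removal, Cotl1 included, and Mgst3, Ptgds and Cbr1 lie right of 0.

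Reads of overlapping genes limit 3 of the genes. Exons of Alox5ap, Ptgs1 and Tbxas1 share 189, 148 and 144 bases with genes on the opposite strand (Gm19719, Gm43621 and Gm42962) in the GENCODE annotation, and whether the libraries kept the strand is not given in the sources used here.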

How the data were processed

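Blood RNA of 2 Ctrl and 2 Nar libraries was examined as one table of FPKM per gene, made and deposited by the authors, with 2 decimals. The submitters' processing notes name TopHat2, Cufflinks and the GRCm38 build, the study's methods describe bowtie-2 alignment, and the step that made the FPKM values is not stated. Of 23136 genes listed, 5313 were blank and 17823 had values, and 0 columns were left unmapped. FPKM summed to between 1477724 and 1582821 per library. Of the low values examined, 38.7% to 41.8% fell on whole-read steps, against 22.5% to 23.5% without steps. The best-fitting step was 0.043 to 0.044 FPKM times kilobase in the libraries. Most values did not fall on steps, so read numbers were not recovered and the depth was not established.

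Values were analysed as log2(FPKM + 0.1) with limma 3.58.1 in R 4.3.3, with a mean-dependent trend, on 5339 genes whose FPKM averaged 0.5 or more. P-values were adjusted by the Benjamini-Hochberg method, and a call needed an adjusted p under 0.05 and more than a 2-fold change. The script was tested on simulated data. Nothing states that the libraries came from separate mice, so p-values measure only the spread between these libraries. Ratios were tested by exact permutation in Python 3.11.15, and figures were drawn with matplotlib 3.10.9.

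The genes and lists were chosen with earlier results of these data known. The text names all 10 genes, the other pathway genes that limma called or that were most abundant in their group, the leading gene of some marker lists and the 3 nearest profiles of each branch's most abundant gene. Ltc4s, Cbr1, Mgst3, Cysltr2, Pla2g4a, Plaa and Pla2g12a were named after their values were seen. Prxl2b was matched as Fam213b by gene number. Promoters came from RefSeq (GRCm38.p6). Alternatives were other pseudocounts, filters, scalings, a limma fit without trend, a replicate block and leaving out each library.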

Additional observations from a re-analysis of the deposited data

How the results depend on the processing

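In limma, the 2106 calls over all genes became 670 with a pseudocount of 1, 0 with no filter (4978 at an unadjusted p under 0.05, 5 among the 10 genes), 117 when a mean of 5 FPKM was required, 281 with haemoglobin genes removed and 42 with median-of-ratios scaling. The 4 calls among the 10 genes became 2, 0, 1, 1 and 0, and the 8 in the wider pathway 4, 0, 2, 3 and 0. Without each library in turn these counts were 0 to 258, 0 to 1 and 0 to 1, with 0 calls in all 3 without Ctrl 1 or without Ctrl 3 (2682 and 2133 at an unadjusted p under 0.05), when a lone library is assumed to vary like the other group. The median of all tested genes was -0.62, -0.57, -0.94, -0.56 and -0.00 under the same 5 settings (-1.22 to -0.93 without a library), and that of the 5-lipoxygenase genes -1.09 with a pseudocount of 1, -1.60 at a mean of 5 (Alox5ap alone), -1.25 without haemoglobin and -0.69 with median-of-ratios scaling (-1.95 to -1.68 without a library). Median-of-ratios scaling gave -0.43 for all 7 genes and reversed the 12/15-lipoxygenase (0.23) and cyclooxygenase (0.08) medians, with Alox12 at 0.23, Tbxas1 at 0.12 and Ptgs1 at 0.04, and left 3 of 6 genes with both Nar below both Ctrl. Alox15 ranged from -1.54 to 0.33, the latter without Ctrl 1. The Nar minus Ctrl difference in the log2 ratio of Alox12 to Tbxas1 was 0.10, and 0.01 with a pseudocount of 1. The cause was not tested. As a replicate block, the numbers gave 1813 calls, 1704 of them shared, and 3 of the 10 genes, losing Alox5ap. Same-numbered deviations had a correlation of -0.153, but 2 libraries a group cannot settle whether a shared number marks a batch. The crossed replicate block, chosen after seeing the data, gave 2861 calls, 6 of them among the 10 genes and 2 of those in the cyclooxygenase branch. Unknown depth leaves values near 0.01 FPKM, such as Ptges, unresolved.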
